A study of Homo sapiens with 15 samples.

Results

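The NFAT transcription factor family comprised 5 genes, NFATC1, NFATC2, NFATC3, NFATC4 and NFAT5, chosen by name from the 21493 genes counted in each library and not by their values. All 5 passed the filter on low counts, which left 14368 genes to test. RNA was sequenced in 15 libraries of NCI-H295R, a cell line from a human adrenocortical carcinoma that secretes steroid hormones. ΔNFATC4 cells (3 libraries) were wild-type cells transfected with a plasmid for a constitutively active form of NFATC4, and mock cells (4 libraries) were wild-type cells transfected with the empty plasmid, with RNA taken 3 days after transfection in both. NFATC4-KO cells (4 libraries, numbered 1, 2, 3 and 5) were grown from single cells after CRISPR/Cas9 with 2 guide RNAs against exons 3 and 5 of NFATC4. Control cells (4 libraries) were wild type and had received empty plasmids in parallel. Which clone gave which NFATC4-KO library, and whether the libraries came from separate cultures, is not given in the sources used here, so the tests measure the spread between these libraries.

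NFATC1 to NFATC4 are kept in the cytoplasm by phosphorylation, and the calcium-dependent phosphatase calcineurin removes these phosphates so that they enter the nucleus and bind DNA, often beside AP-1 factors. NFAT5, also called TonEBP, has the same kind of DNA-binding domain but no calcineurin docking region, and is known as the factor that raises osmolyte transporters when the medium becomes hypertonic. The family binds DNA at sites with a GGAAA core, and NFATC1 is known in lymphocytes and bone-resorbing cells to be raised by NFAT proteins through its own promoter. RNA levels, as measured here, do not show whether a protein is in the nucleus.

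The members lie on 4 chromosomes. In the GENCODE annotation of GRCh38, NFATC4 (ENSG00000100968) spans chr14:24365673-24379604 on the plus strand and overlaps no other annotated gene. NFATC1 (ENSG00000131196) spans chr18:79395856-79529325 on the plus strand, and NFATC2 (ENSG00000101096) spans chr20:51386957-51562831 on the minus strand. NFATC3 (ENSG00000072736) spans chr16:68084751-68229259 and NFAT5 (ENSG00000102908) spans chr16:69565094-69704666, both on the plus strand. ESRP2 overlaps NFATC3 on the opposite strand, and since the strand setting of the counting is not given in the sources used here, reads of these genes may be mixed. No stretch of 50 bases was shared between the transcripts of any members.

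The promoters of NFATC4 and of the calcineurin-dependent members are shown because the levels of all 4 genes differed between sets of libraries described below. RefSeq promoter windows (GRCh38.p14) were matched for 4 of the 5 members, giving 8 windows of 250 bases that end at an annotated start. The first window listed for each gene is given, 5′ to 3′ on the gene's strand, with GGAAA and its reverse complement TTTCC in capitals.
NFATC4, chr14:24366661-24366910, plus strand: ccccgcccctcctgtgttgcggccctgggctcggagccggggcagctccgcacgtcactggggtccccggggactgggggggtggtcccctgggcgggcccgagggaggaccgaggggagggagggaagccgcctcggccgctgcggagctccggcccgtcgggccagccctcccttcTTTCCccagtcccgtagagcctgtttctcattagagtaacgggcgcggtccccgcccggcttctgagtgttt
NFATC1, chr18:79395680-79395929, plus strand: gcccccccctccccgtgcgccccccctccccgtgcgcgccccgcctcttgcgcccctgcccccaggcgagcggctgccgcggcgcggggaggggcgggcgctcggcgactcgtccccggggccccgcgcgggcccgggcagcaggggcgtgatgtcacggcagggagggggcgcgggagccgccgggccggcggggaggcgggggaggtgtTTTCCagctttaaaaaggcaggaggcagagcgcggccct
NFATC2, chr20:51562840-51563089, minus strand: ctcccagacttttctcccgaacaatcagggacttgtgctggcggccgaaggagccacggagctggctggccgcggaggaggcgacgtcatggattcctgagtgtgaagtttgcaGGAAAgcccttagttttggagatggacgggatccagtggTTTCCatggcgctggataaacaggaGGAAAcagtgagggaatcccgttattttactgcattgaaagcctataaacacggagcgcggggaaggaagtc
NFATC3, chr16:68085120-68085369, plus strand: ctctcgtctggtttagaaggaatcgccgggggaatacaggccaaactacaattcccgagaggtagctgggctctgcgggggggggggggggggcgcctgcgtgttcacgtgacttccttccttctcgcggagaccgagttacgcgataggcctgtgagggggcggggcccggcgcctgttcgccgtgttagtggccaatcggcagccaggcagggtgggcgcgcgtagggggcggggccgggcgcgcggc
The core was searched on both strands and was found 1 time in the NFATC4 window, 1 time in the NFATC1 window, 3 times in the NFATC2 window and 0 times in the NFATC3 window. Of the 4 windows not printed, the second of NFATC1 held it 1 time, and 2 of NFATC4 and 1 of NFATC2 held it 0 times. Of 35116 windows of the same length, 55.6% held GGAAA. The longer TGGAAA, which contains the core, was present in the printed NFATC1 and NFATC2 windows, in none of the others, and in 18% of all windows. A match is a run of letters and does not show binding.

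The libraries held 18.8 to 28.2 M counts each. All levels are CPM, counts per M of the library total after scaling by TMM, which evens out differences in RNA composition. The 10 adrenocortical marker genes summed to 4064 to 5473 CPM in every library, while 8 T cell markers summed to 0 to 0.259 CPM and CD3D had 0 counts throughout. DLK1 was the largest part of the adrenocortical sum, at 2427 to 4208 CPM, so a steady sum does not mean steady levels of the other markers. Control replicates 3 and 4 and NFATC4-KO replicates 3 and 5 stood apart from the other control and NFATC4-KO libraries, without overlap upwards for 17.3% of tested genes and downwards for 20.0%. Of the adrenocortical markers, 6 of 10 were lower in these 4 libraries than in the other 11 without overlap, as were 12.8% of tested genes. STAR, the cholesterol carrier of steroid synthesis, was among them, at 211 to 308 CPM, against 501 to 900 CPM. The 1 marker that was higher without overlap was DLK1, at 3148 to 4208 CPM, against 2427 to 3023 CPM, as were 11.2% of tested genes. Fibroblast markers summed to 14.2 to 19.1 CPM in these 4 libraries, against 20.8 to 53.1 CPM, and endothelial markers to 0.214 to 0.689 CPM, against 0.0434 to 0.527 CPM. COL1A1 and COL3A1 made up most of the fibroblast sum. Of the 6 fibroblast markers, 2 were lower without overlap, as were 12.8% of tested genes, while 4 overlapped. All 5 endothelial markers overlapped, with at most 16 counts in any library. In this cell line the sums do not show that such cells were present. The part of these differences in the NFAT values was not tested. In bulk RNA, fewer cells of a type and less RNA per cell cannot be told apart.

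NFATC4 was higher in ΔNFATC4 cells, which had received a plasmid for a form of it. It had 330, 359 and 342 CPM in ΔNFATC4 replicates 1 to 3, against 91.3, 93.4, 106 and 87.6 CPM in mock replicates 1 to 4. Every ΔNFATC4 library lay far above every mock library, and 12.5% of tested genes were likewise higher without overlap. The fold change was 3.64 (95% interval 2.34 to 5.64, log2 1.86, standard error 0.29, adjusted p = 0.00385, edgeR quasi-likelihood test). Reads from the plasmid count towards NFATC4, so this value does not separate the transfected form from the cells' own gene. The rise was set in advance by the transfection, so its tests do not show a response of the cells. An exact two-sided permutation test gave p = 0.0571, the smallest that 3 against 4 libraries allow (adjusted over 10 such tests, 0.285).

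The libraries labelled NFATC4-KO still held NFATC4 RNA. The gene had 92.7, 85.4, 57.6 and 53.6 CPM in NFATC4-KO replicates 1, 2, 3 and 5, against 114, 110, 44.8 and 54.0 CPM in control replicates 1 to 4. Under both labels the lower numbers were high and the higher numbers were low, so the groups overlapped widely. With all libraries the fold change was 0.894 (95% interval 0.593 to 1.35, edgeR adjusted p = 0.888). Counts over the whole gene do not read the edited bases, so they do not check the knockout label. The study's own immunoblots compared NFATC4 protein in control and NFATC4-KO cells, which RNA counts do not measure.

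The libraries numbered 1 and 2 and those numbered 3 to 5 were then taken as 2 sets, and within them the values ran in different directions. NFATC4 lay at 85.4 to 92.7 CPM in NFATC4-KO replicates 1 and 2, against 110 to 114 CPM in control replicates 1 and 2, and with so few libraries 28.9% of tested genes were lower without overlap. A fit without the libraries numbered 3 to 5, added after the data were seen, gave a log2 fold change of −0.34 (standard error 0.08, edgeR adjusted p = 0.0267). Among the libraries numbered 3 to 5, NFATC4-KO lay at 53.6 to 57.6 CPM, against 44.8 to 54.0 CPM in control, with overlap (log2 fold change 0.17, standard error 0.10, edgeR adjusted p = 0.310). Each of these fits had 2 libraries a label, and with all libraries and the set as a term the fold change was 0.937 (95% interval 0.833 to 1.05, edgeR adjusted p = 0.521). The sets had been singled out by NFATC4 itself.

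**Figure D1:**
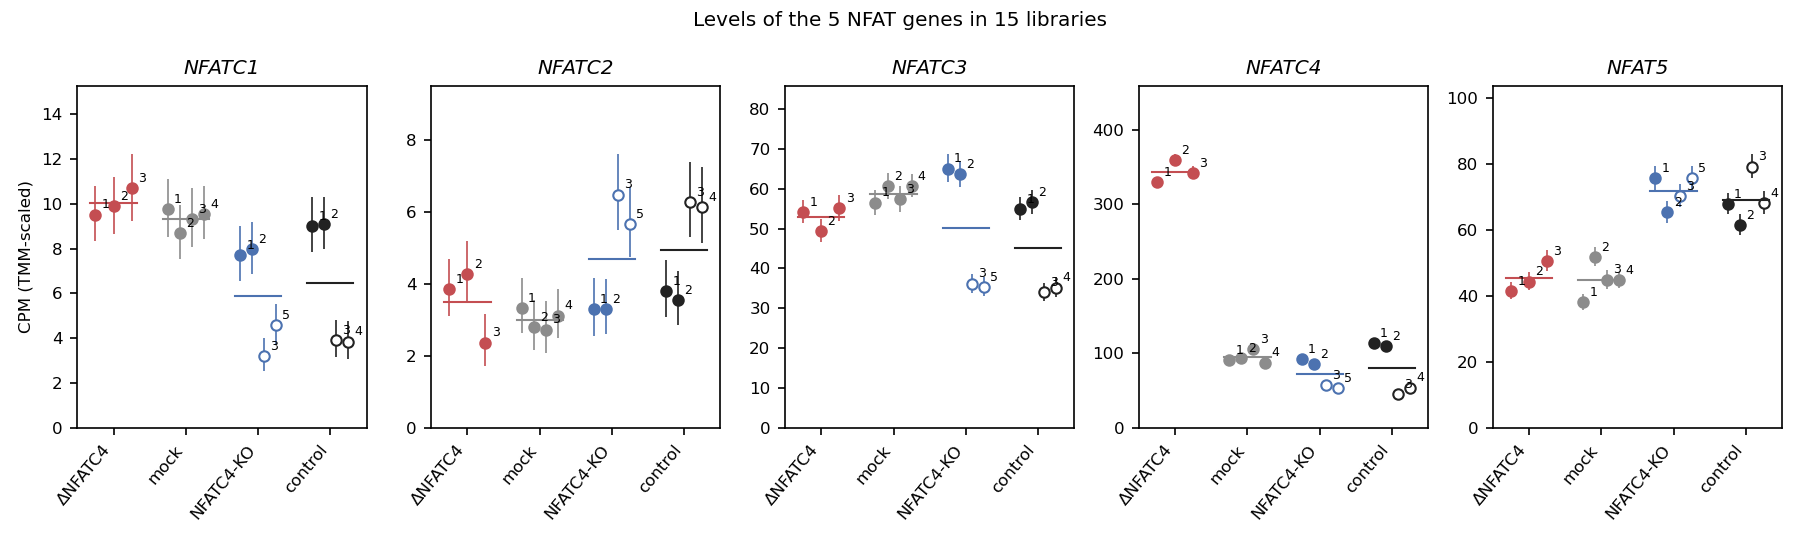
CPM (TMM-scaled, linear axes from 0) of each NFAT gene in each library, grouped as ΔNFATC4, mock, NFATC4-KO and control, with the replicate number beside each point. Thin bars are exact 95% Poisson intervals of the count, horizontal lines are group means, and open circles mark control replicates 3 and 4 and NFATC4-KO replicates 3 and 5. NFATC4 lay at 330 to 359 CPM in ΔNFATC4 cells and at 87.6 to 106 CPM in mock cells, and the open circles lie apart from the filled ones for NFATC1 to NFATC4.

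Of the other 4 members, 0 were called higher and 0 lower in ΔNFATC4 against mock. Of all tested genes, 2.27% were called higher and 1.42% lower in this comparison at an adjusted p under 0.05 by edgeR. With all 15 libraries fitted, none of these 4 passed at an unadjusted p under 0.05, and DESeq2 and limma-voom called none. In NFATC4-KO against control, 0 of the 5 members were called in either direction by edgeR, DESeq2 or limma-voom, where 0.216% of tested genes were called higher and 0.216% lower by edgeR. In this comparison 0 members were without overlap between the groups, against 3.68% of tested genes higher and 3.06% lower. At an unadjusted p under 0.05, 0 members passed in edgeR and 2 in limma-voom.

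NFATC1, the member known for autoregulated induction in T cells and osteoclasts, had similar levels with and without ΔNFATC4. It had 9.51, 9.88 and 10.7 CPM in ΔNFATC4 libraries, against 9.76, 8.67, 9.32 and 9.55 CPM in mock libraries. Of the 3 ΔNFATC4 libraries 2 lay above all mock libraries, and the groups overlapped. The fold change was 1.07 (95% interval 0.660 to 1.75, edgeR adjusted p = 0.957), and in a fit of these 2 groups alone the interval was 0.930 to 1.24. The spread within each group was no larger than counting error, with SDs of 0.86 and 0.75 times that of the counts in ΔNFATC4 and mock cells.

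In NFATC4-KO replicates 1, 2, 3 and 5, NFATC1 had 7.71, 7.96, 3.20 and 4.59 CPM, against 8.99, 9.10, 3.92 and 3.85 CPM in control replicates 1 to 4. The libraries numbered 3 to 5 were low under both labels, and the groups overlapped. The fold change of NFATC4-KO over control was 0.903 (95% interval 0.569 to 1.43, edgeR adjusted p = 0.916), and with the set as a term the interval was 0.787 to 1.07. The counts behind the low libraries were 75 to 107, and an exact Poisson interval for NFATC4-KO replicate 3 ran from 2.52 to 4.01 CPM.

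NFATC2, a member best known from resting and activated T cells, had the fewest reads in ΔNFATC4 and mock cells. It had 3.85, 4.27 and 2.37 CPM in ΔNFATC4 libraries, against 3.34, 2.80, 2.73 and 3.12 CPM in mock libraries. The ΔNFATC4 libraries lay both above and below the mock libraries. The fold change was 1.17 (95% interval 0.763 to 1.79, edgeR adjusted p = 0.834). Replicate 3 of ΔNFATC4, the shallowest library, had 45 counts of NFATC2, and the SD in this group was 2.46 times the counting error.

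In NFATC4-KO replicates 1, 2, 3 and 5, NFATC2 had 3.30, 3.31, 6.49 and 5.66 CPM, against 3.81, 3.55, 6.29 and 6.14 CPM in control replicates 1 to 4. Here the libraries numbered 3 to 5 were high under both labels, opposite to NFATC1 and NFATC4. The fold change of NFATC4-KO over control was 0.950 (95% interval 0.646 to 1.40, edgeR adjusted p = 0.955), and with the set as a term the interval was 0.778 to 1.14.

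NFATC3, which is expressed in many tissues, was slightly lower in every ΔNFATC4 library. It had 54.1, 49.4 and 55.1 CPM in ΔNFATC4 libraries, against 56.5, 60.6, 57.3 and 60.7 CPM in mock libraries. The groups did not overlap, as for 11.7% of tested genes in this direction, and the exact two-sided permutation p was 0.0571 (adjusted over 10 tests, 0.285). The fold change of 0.900 was not called (95% interval 0.637 to 1.27, log2 −0.15, standard error 0.23, edgeR adjusted p = 0.877). In 4 edgeR fits with narrower spread (the 2 groups alone, the set as a term, and either set left out) the unadjusted p was 0.0155 to 0.0338, and NFATC3 was not called, with an adjusted p of 0.0763 to 0.148.

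In NFATC4-KO replicates 1, 2, 3 and 5, NFATC3 had 65.0, 63.6, 36.2 and 35.3 CPM, against 54.9, 56.6, 34.0 and 35.2 CPM in control replicates 1 to 4. Within each set the NFATC4-KO libraries were above the control libraries, as were 29.1% of tested genes among numbers 1 and 2 and 25.3% among numbers 3 to 5, where the gap was narrow (27.7% were lower there). Over all libraries the groups overlapped. The fold change was 1.11 (95% interval 0.803 to 1.52, edgeR adjusted p = 0.865), and with the set as a term it was 1.09 (95% interval 1.01 to 1.19, edgeR adjusted p = 0.162). The difference between the comparisons, ΔNFATC4 over mock minus NFATC4-KO over control, was −0.30 in log2 units (standard error 0.32, edgeR adjusted p = 0.730). By this test 1.31% of tested genes were called higher and 0.828% lower. With the set as a term it was −0.28 (standard error 0.09, edgeR adjusted p = 0.0250), and without the libraries numbered 3 to 5 it was −0.35 (standard error 0.09, edgeR adjusted p = 0.0187), so the call depended on how the sets were treated.

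NFAT5, the tonicity-responsive member, had like levels in ΔNFATC4 and mock cells. It had 41.6, 44.4 and 50.7 CPM in ΔNFATC4 libraries, against 38.1, 51.9, 45.0 and 44.8 CPM in mock libraries. The mock libraries spanned all of the ΔNFATC4 values. The fold change was 1.01 (95% interval 0.865 to 1.19, edgeR adjusted p = 0.981), the narrowest interval of the family.

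In NFATC4-KO replicates 1, 2, 3 and 5, NFAT5 had 75.7, 65.5, 70.4 and 75.8 CPM, against 68.0, 61.6, 79.3 and 68.3 CPM in control replicates 1 to 4. The groups overlapped, and the libraries numbered 3 to 5 did not stand apart. The fold change was 1.04 (95% interval 0.897 to 1.20, edgeR adjusted p = 0.902), and with the set as a term the interval was 0.925 to 1.16. All 7 ΔNFATC4 and mock libraries, at 38.1 to 51.9 CPM, lay below all 8 control and NFATC4-KO libraries, at 61.6 to 79.3 CPM, as did 6.92% of tested genes, with 5.03% higher. Mitochondrial genes took 11.1 to 13.1% of counts in the ΔNFATC4 and mock libraries, against 8.82 to 10.5% in the others, and 2 of 10 adrenocortical markers were higher in them without overlap. The part of these in the NFAT5 difference was not tested. The plasmids and the culture after transfection differ between these sides as a whole and cannot be told apart.

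**Figure D2:**
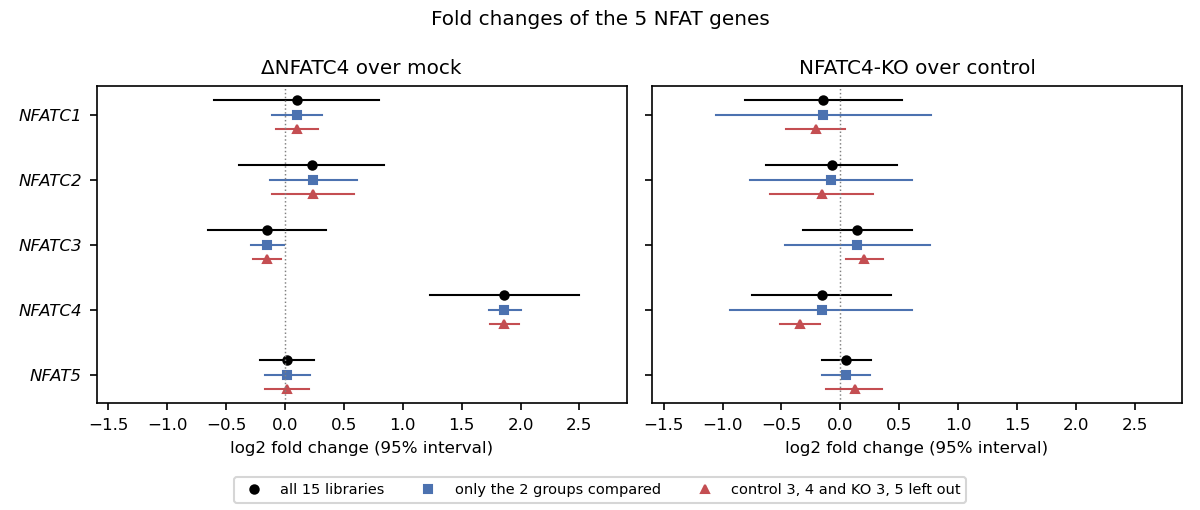
Log2 fold changes of the 5 NFAT genes, ΔNFATC4 over mock (left) and NFATC4-KO over control (right), with 95% intervals from edgeR. Black circles are the fit of all 15 libraries, blue squares the fit of only the 2 groups compared, and red triangles the fit without control replicates 3 and 4 and NFATC4-KO replicates 3 and 5. NFATC4 lies at 1.86 in ΔNFATC4 cells, and in NFATC4-KO cells its red triangle, at −0.34, comes from a fit added after the data were seen, while the libraries left out of it gave 0.17.

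The members were next set beside NFATC4 where it was low. Control replicates 3 and 4 and NFATC4-KO replicates 3 and 5 had 44.8 to 57.6 CPM of NFATC4, against 85.4 to 359 CPM in the other 11 libraries. In these 4 libraries NFATC1 was lower, at 3.20 to 4.59 CPM, against 7.71 to 10.7 CPM in the other 11. NFATC3 was lower as well, at 34.0 to 36.2 CPM, against 49.4 to 65.0 CPM. Neither range overlapped, and the same held downwards for 12.8% of tested genes.

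NFATC2 ran the other way. It lay at 5.66 to 6.49 CPM in the 4 libraries with low NFATC4, against 2.37 to 4.27 CPM in the other 11, without overlap, as did 11.2% of tested genes upwards. NFAT5 overlapped, at 68.3 to 79.3 CPM, against 38.1 to 75.7 CPM. The split was made on NFATC4 and no test was made of it. It did not follow the knockout label, since 2 control and 2 NFATC4-KO libraries lay on each side of it.

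**Figure D3:**
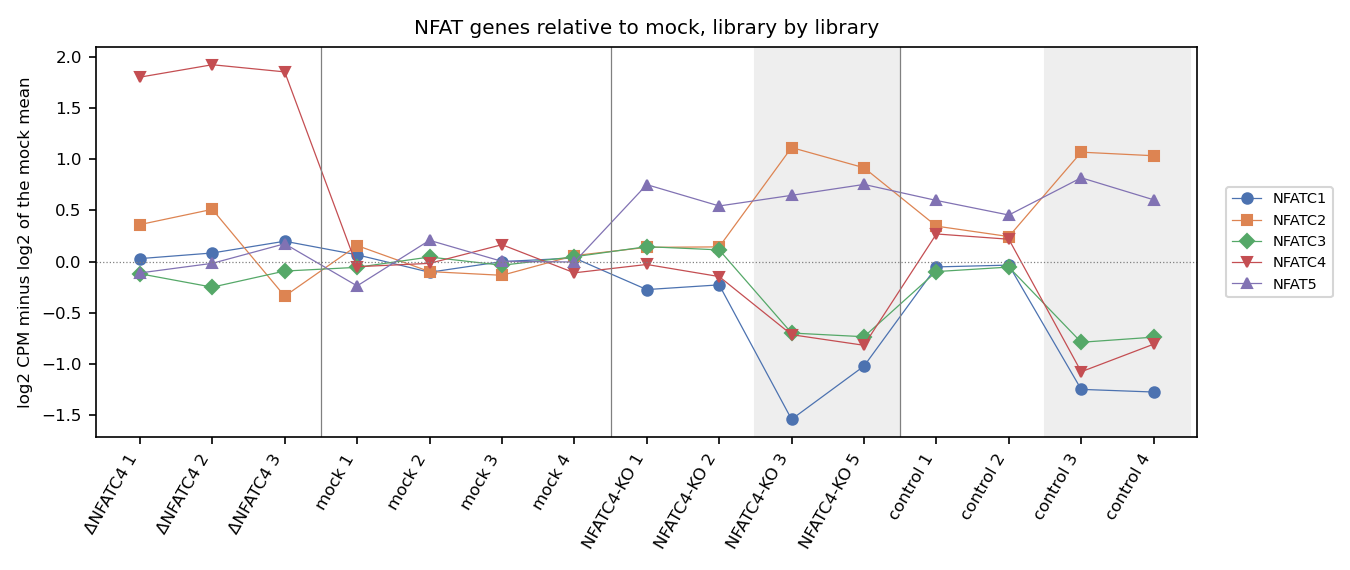
Log2 CPM of each NFAT gene minus the log2 of its mean over mock libraries, for the 15 libraries in the order ΔNFATC4, mock, NFATC4-KO and control. Thin lines join the libraries only to guide the eye, and grey bands mark control replicates 3 and 4 and NFATC4-KO replicates 3 and 5. In the grey bands NFATC1, NFATC3 and NFATC4 lie below 0 and NFATC2 and NFAT5 above it, while in ΔNFATC4 libraries NFATC4 alone lies far above 0. The unshaded control and NFATC4-KO libraries also lie below 0 for NFATC1 and above it for NFATC2 and NFAT5.

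The same members were set beside mock in ΔNFATC4 cells, where NFATC4 was high, and a part of NFATC4 level in their differences was not tested. NFATC1 at 9.51 to 10.7 CPM and NFATC2 at 2.37 to 4.27 CPM in ΔNFATC4 cells both overlapped the mock libraries, at 8.67 to 9.76 CPM and 2.73 to 3.34 CPM. Of the 3 ΔNFATC4 libraries, 2 lay above all mock libraries for NFATC1. For NFATC2, 2 lay above and 1 below all mock libraries. NFATC3 was on the same side of mock, below it, in ΔNFATC4 libraries and in the 4 libraries low in NFATC4. The plasmids and the culture after transfection also differ between mock and these 4 libraries. The ratio of NFATC2 to NFATC1, per kb of exon, was 0.244 to 0.473 in all 11 other libraries, ΔNFATC4 cells included, and 1.35 to 2.22 in the 4 low ones.

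Levels between members were compared as CPM per kb of exon, using the union of annotated exons. NFATC4 had the highest mean in every group, at 40.8 ± 1.76 in ΔNFATC4 cells, 11.2 ± 0.952 in mock cells, 8.57 ± 2.33 in NFATC4-KO cells and 9.58 ± 4.33 CPM per kb in control cells (SD, n = 3, 4, 4 and 4). The ΔNFATC4 value includes plasmid reads, for which the exon length of the gene need not hold. NFATC3 followed at 6.0 ± 0.341 CPM per kb in ΔNFATC4 cells and 6.67 ± 0.252 in mock cells. NFAT5 came next at 2.25 ± 0.231 in ΔNFATC4 cells and 2.22 ± 0.278 CPM per kb in mock cells.

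NFATC1 and NFATC2 were the scarce members. NFATC1 had 1.1 ± 0.0641 CPM per kb in ΔNFATC4 cells and 1.03 ± 0.0524 in mock cells, and NFATC2 had 0.422 ± 0.120 in ΔNFATC4 cells and 0.362 ± 0.0344 CPM per kb in mock cells. In ΔNFATC4 and mock cells no neighbours in this order overlapped. In NFATC4-KO cells the range of NFATC4 overlapped that of NFATC3 and NFATC1 overlapped NFATC2, and in control cells NFATC3 also overlapped NFAT5. Within single libraries, NFATC4 was above NFATC3 in 4 of 4 NFATC4-KO and 4 of 4 control libraries. NFATC3 was above NFAT5 in 3 of 4 control libraries, and NFATC1 was above NFATC2 in 2 of 4 libraries of each label. The same order of means was found with the length of the longest transcript in place of the union of exons.

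As a share of the summed family level per kb, NFATC4 took 79.9 to 81.9% in ΔNFATC4 libraries, against 49.6 to 55.5% in mock libraries. Plasmid reads count in the ΔNFATC4 share, which is thus not the share of the cells' own NFATC4. It took 41.5 to 47.1% in NFATC4-KO libraries, against 37.2 to 55.1% in control libraries. Without NFATC4, by which the 4 low libraries had been chosen, the summed level of the other 4 members was 8.53 to 8.96 CPM per kb in those libraries, against 9.77 to 12.4 CPM per kb in the other mock, control and NFATC4-KO libraries. NFAT5 took 22.4 to 27.4% of the family in the 4 low libraries, where its level per kb was 0.843 to 1.01 times that of NFATC3, and 12.7 to 16.0% in the other control and NFATC4-KO libraries.

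**Figure D4:**
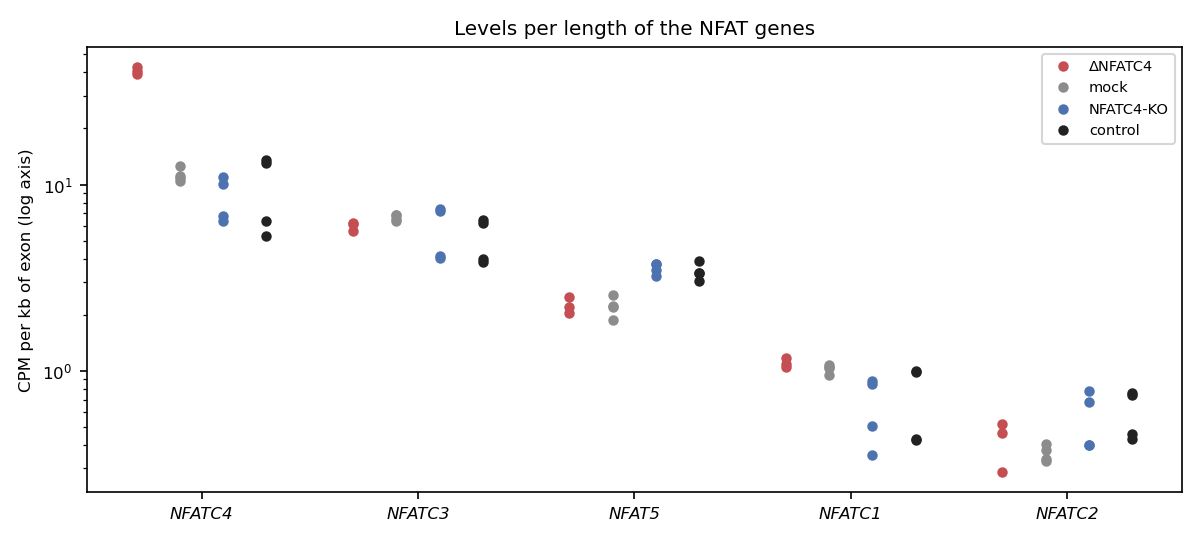
CPM per kb of exon on a log axis for the NFAT genes, ordered by mean level, with 1 point per library in ΔNFATC4, mock, NFATC4-KO and control cells. NFATC4 lies at 39.1 to 42.6 in ΔNFATC4 cells, where plasmid reads count, and at 10.4 to 12.6 in mock cells. NFATC1 and NFATC2 lie below the others in all groups.

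The genes with the most alike profiles were sought among 13074 genes with a mean of at least 1 CPM, by the root mean square difference of centred log2 CPM. NFATC4, over the 12 mock, NFATC4-KO and control libraries, was nearest to B4GALNT3 (0.095), TMEM266 (0.097) and BRSK2 (0.106). B4GALNT3, a glycosyltransferase gene, had 73.8 to 85.8 CPM in the 4 low libraries, against 134 to 159 CPM in the other control and NFATC4-KO libraries. Over all 15 libraries NFATC1 was nearest to BEX4 (0.110), CXXC5 (0.118) and DDX28 (0.132). Among the genes nearest to NFATC2 were RWDD2B (0.123) and B3GNT9 (0.139).

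NFATC3 was nearest to NDEL1 (0.071), KLHL20 (0.080) and TOR1AIP2 (0.084), and NDEL1 lay at 40.0 to 45.7 CPM in the 4 low libraries, against 61.2 to 73.8 CPM in the other 11. NFAT5 was nearest to UBN2 (0.079), ARHGEF12 (0.090) and HEATR5A (0.093). UBN2 had 56.0 to 80.4 CPM in ΔNFATC4 and mock libraries, against 89.4 to 108 CPM in control and NFATC4-KO libraries. No member was among the nearest genes of another. These are likenesses of level and carry no test.

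The genes around the family were taken from 6 lists. Among calcineurin subunits and regulators, 1 of 12 tested genes rose in ΔNFATC4 against mock and 0 fell by edgeR. Of all tested genes, 2.27% rose and 1.42% fell. The median log2 fold change of the list was −0.07, against 0.00 over all tested genes. At an unadjusted p under 0.05, 3 were lower, and limma-voom called 3 lower and DESeq2 0. The gene that rose was RCAN1, which encodes an inhibitor of calcineurin and is a known NFAT target. It had 47.9, 45.6 and 50.6 CPM in ΔNFATC4 libraries, against 32.8, 30.3, 27.6 and 27.8 CPM in mock libraries, without overlap (log2 fold change 0.70, standard error 0.09, edgeR adjusted p = 0.000765). In NFATC4-KO cells RCAN1 averaged 29.4 ± 0.954 CPM and in control cells 28.5 ± 3.72 CPM (SD, n = 4 each, edgeR adjusted p = 0.902).

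Among kinases and shuttling factors of NFAT, 3 of 20 tested genes fell in ΔNFATC4 cells and 0 rose by edgeR, with a median log2 fold change of −0.02, and 1.42% of all tested genes fell. The count was 0 without ΔNFATC4 replicate 2 or 3, 1 without ΔNFATC4 replicate 1 or mock replicate 2 or 4, and 5 without the libraries numbered 3 to 5. None was higher at an unadjusted p under 0.05, and DESeq2 and limma-voom called 0 higher. DYRK2, a kinase that phosphorylates NFAT, averaged 40.1 ± 1.5 CPM in ΔNFATC4 cells and 51.4 ± 4.59 CPM in mock cells (SD, n = 3 and 4, edgeR adjusted p = 0.0226). MAPK14, the p38α kinase, averaged 147 ± 1.32 CPM in ΔNFATC4 cells and 175 ± 8.15 CPM in mock cells (edgeR adjusted p = 0.0190). PIM1, a kinase gene, averaged 28.7 ± 0.257 CPM in ΔNFATC4 cells and 35.4 ± 0.690 CPM in mock cells (edgeR adjusted p = 0.0106). All 3 were changes of less than a doubling, with log2 fold changes of −0.36, −0.25 and −0.30. In NFATC4-KO and control cells, DYRK2 averaged 43.8 and 43.0 CPM, MAPK14 155 and 160 CPM, and PIM1 27.7 and 26.9 CPM. All of these means were nearer to those of ΔNFATC4 than of mock cells, so the fold changes do not show which side moved. The plasmids and the culture after transfection also differ between mock and these cells.

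Among partner transcription factors, 1 of 17 tested genes fell and 0 rose by edgeR, with a median log2 fold change of 0.01. Of all tested genes, 1.42% fell and 2.27% rose. At an unadjusted p under 0.05, 1 was higher and 3 lower, and limma-voom called 2 higher and 3 lower and DESeq2 0 and 2. Some other edgeR fits called 3 lower and 1 or 2 higher. These were the 2 groups alone, the set as a term, the replicate block, and either set left out. In the fit of all libraries the gene that fell was JUND, an AP-1 subunit, at 61.1, 63.7 and 64.2 CPM in ΔNFATC4 libraries, against 94.3, 83.9, 86.9 and 94.0 CPM in mock libraries (log2 fold change −0.51, standard error 0.12, edgeR adjusted p = 0.0325). JUND averaged 55.5 CPM in NFATC4-KO and 56.3 CPM in control cells, nearer to ΔNFATC4 than to mock cells. Of the other 5 Rel homology factors, which share the DNA-binding fold with NFAT, 0 were called by edgeR, DESeq2 or limma-voom with all libraries, and 0 passed an unadjusted p under 0.05 in edgeR. The edgeR fit without the libraries numbered 3 to 5 called 1 of them higher. Of 33 listed calcineurin-NFAT targets only 15 had enough reads to test, and the T cell cytokine genes IL2 and IL4 were among those left out. By edgeR RCAN1 rose and MYC fell, with a median log2 fold change of 0.27, where 326 of the 14368 tested genes rose and 204 fell. At an unadjusted p under 0.05, 4 were higher and 2 lower, and DESeq2 called 2 higher and 1 lower and limma-voom 3 higher and 2 lower. The edgeR calls were 4 higher and 3 lower with the 2 groups alone and 4 and 2 with the set as a term. They were 5 and 2 with the replicate block, which held only the libraries numbered 1 to 3 of the 2 groups. They were 6 and 3 without the libraries numbered 3 to 5, and 5 and 2 without those numbered 1 and 2. Calls over all tested genes were also more in these fits, at 1053 to 1333 higher and 860 to 1136 lower. MYC, a growth regulator, averaged 30.6 ± 0.927 CPM in ΔNFATC4 cells and 45.7 ± 3.93 CPM in mock cells (SD, n = 3 and 4, log2 fold change −0.58, edgeR adjusted p = 0.0106). In NFATC4-KO and control cells MYC averaged 35.3 and 38.8 CPM, between these means.

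Among 13 tested targets of NFAT5, 2 rose and 0 fell by edgeR, with a median log2 fold change of −0.02. Of all tested genes, 2.27% rose and 1.42% fell. At an unadjusted p under 0.05, 2 were lower, and limma-voom called 2 lower and DESeq2 0. Some other edgeR fits called 2 to 4 lower and 2 or 3 higher. These were the 2 groups alone, the set as a term, the replicate block, and either set left out. NFAT5 RNA itself lay at 41.6 to 50.7 CPM in ΔNFATC4 cells and 38.1 to 51.9 CPM in mock cells. SLC6A12, the betaine transporter gene, had 1.30, 1.51 and 1.53 CPM in ΔNFATC4 libraries, against 0.347, 0.0862, 0.0942 and 0.144 CPM in mock libraries. These were 29 to 35 counts a library, against 2 to 8, and the groups did not overlap (log2 fold change 3.06, standard error 0.54, edgeR adjusted p = 0.00531). AQP1, a water channel gene, had 5.79, 7.12 and 6.64 CPM in ΔNFATC4 libraries, against 1.87, 2.28, 2.07 and 2.48 CPM in mock libraries (log2 fold change 1.58, standard error 0.22, edgeR adjusted p = 0.00108). The transporter gene SLC5A3 and the aldose reductase gene AKR1B1, further targets of NFAT5, were not called in the edgeR fit of all libraries.

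In NFATC4-KO against control, 0 genes of the 6 lists were called by edgeR, and of all tested genes only 0.216% were called each way. At an unadjusted p under 0.05, 2 calcineurin genes were lower, 1 kinase or shuttling gene was higher and 1 lower, 2 partner factors were higher, and 1 other Rel factor was higher. In the calcineurin-NFAT target list and in the NFAT5 target list, 2 genes were higher and 2 lower. DESeq2 called 2 calcineurin genes lower, 1 partner factor higher and 1 NFAT5 target higher, and limma-voom called 1 calcineurin gene lower and 1 kinase higher. Counted over the lists, edgeR called 5 higher and 6 lower with the set as a term. With only the libraries numbered 1 to 3 of these 2 groups, and same numbers as pairs, it called 0 higher and 1 lower. It called 3 higher and 2 lower without the libraries numbered 3 to 5, and 5 higher and 3 lower without those numbered 1 and 2. The count of 0 thus depended on how the sets were treated. So did the calls over all 14368 tested genes. They were 671 higher and 789 lower with the set as a term, 163 and 280 without the libraries numbered 3 to 5, and 515 and 460 without those numbered 1 and 2.

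**Figure D5:**
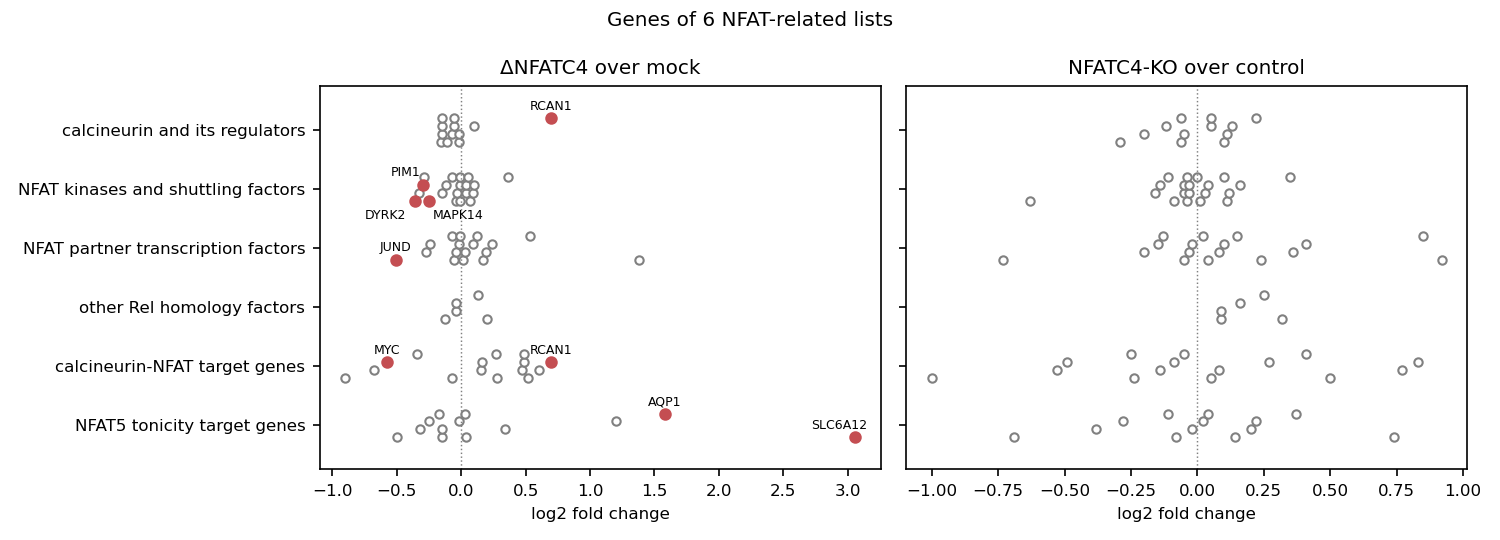
Log2 fold changes of the tested genes of 6 lists around the NFAT family, ΔNFATC4 over mock (left) and NFATC4-KO over control (right). Each circle is a gene, filled and named where the edgeR adjusted p was under 0.05, and its height within a row carries no meaning. RCAN1 at 0.70, AQP1 at 1.58 and SLC6A12 at 3.06 are filled on the left, and no circle is filled on the right.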

How the data were processed

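Raw read counts per gene, 1 library to a file, were deposited by the authors for 15 libraries of NCI-H295R cells. Reads had been aligned with STAR to GRCh38.p13 and counted with featureCounts per the labels, with tool versions not given in the sources used here. Depth was 18.8 to 28.2 M counts, and Poisson intervals at 95% cover counting error only. Of 21493 gene IDs, 21400 matched a symbol.

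The software was edgeR 4.0.16 for TMM factors, CPM and the chief test, with DESeq2 1.42.0 and limma 3.58.1 as alternatives, in R 4.3.3. Genes kept by filterByExpr (14368) were fitted in 1 quasi-likelihood model of all libraries with robust shrinkage and 1 mean per group, with Benjamini-Hochberg adjustment over all of them. Standard errors were taken from the log2 fold change and its F statistic. The 10 exact permutation tests used log2 CPM with 0.5 added. The fit was tested on simulated data with 200 changed genes per comparison.

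Members, gene lists and tests were chosen with earlier results of these data known. The text names all 5 members, RCAN1, up to 6 called genes of each of 6 lists (adjusted p under 0.05, smallest p first), and for each member whose log2 CPM had an SD over 0.25 the 3 most alike genes, of which 1 is not reported here. SLC5A3, AKR1B1, IL2 and IL4 were named outside this rule, after their values were seen. Samples of a group differed by more than sampling noise, with a mean chi-square per gene of 2.28 or more between any pair.

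The alternatives tried were scaling by size factors of DESeq2 or by library totals, no filter, a filter of 50 counts in 3 libraries, DESeq2, limma-voom with sample weights, fits of 2 groups, no robust shrinkage, a replicate block, the library set as a term, and each library left out. The replicate block held only libraries numbered 1 to 3. Its fit of each comparison held only the 2 groups compared, so mock replicate 4, control replicate 4 and NFATC4-KO replicate 5 were left out. Fits without either set of control and NFATC4-KO libraries were added after the data were seen. Deviations from group means of same-numbered NFATC4-KO and control libraries correlated at 0.81, 0.79 and 0.71, so the block treats the numbers as pairs. The 2 library sets divide both labels at the same number, so pairing and set cannot be told apart. Those of ΔNFATC4 and mock did not (0.10, −0.09 and 0.04). Exon lengths came from GENCODE 44 and promoter windows from RefSeq. Protein sequences were not used here.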

Additional observations from a re-analysis of the deposited data

Results flagged for a closer look

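By edgeR's test of the difference itself, 4 of the members and called list genes differed between ΔNFATC4 against mock and NFATC4-KO against control. It called 1.31% of all tested genes higher and 0.828% lower. The list genes examined were RCAN1, DYRK2, MAPK14, PIM1, JUND, MYC, SLC6A12 and AQP1. They had been picked for a call in ΔNFATC4 against mock, which is part of this difference. Their calls were thus favoured in advance and cannot be set against those shares. For NFATC4 the difference was 2.02 in log2 units (standard error 0.40, adjusted p = 0.0222), and plasmid reads enter it. The adjusted p was 0.0502, 0.0757 and 0.0537 without ΔNFATC4 replicate 1, 2 and 3. For RCAN1 it was 0.65 (standard error 0.13, adjusted p = 0.0156), and for AQP1 it was 1.60 (standard error 0.30, adjusted p = 0.0136). For PIM1 it was −0.34 (standard error 0.08, adjusted p = 0.0432). Among 39 groups of 4 libraries checked for a single value far from the rest, over the members and called list genes, 0 had one. The check cannot flag a group that is split into pairs, as control and NFATC4-KO were for NFATC1 to NFATC4. ΔNFATC4 cells, with fewer than 4 libraries, were not checked.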

How the results depend on the processing

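NFATC4 in ΔNFATC4 against mock, where plasmid reads count, stayed called under every alternative run, with log2 fold changes of 1.82 to 1.92. No other member was called in either comparison under any alternative, except NFATC4 in NFATC4-KO against control without the libraries numbered 3 to 5 (−0.34). Without the libraries numbered 1 and 2, NFATC4 in NFATC4-KO against control turned to 0.17 and NFAT5 to −0.02. With limma-voom, NFAT5 in ΔNFATC4 against mock turned to −0.02, and in NFATC4-KO against control NFATC2 turned to 0.17 and NFATC3 to −0.11. The difference between the comparisons for NFAT5 turned to 0.01 with the replicate block and to 0.04 without the libraries numbered 1 and 2. The causes were not tested.

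With 1 library left out at a time, NFAT5 in ΔNFATC4 against mock ranged from −0.07 to 0.09. In NFATC4-KO against control NFATC1 ranged from −0.33 to 0.06, NFATC2 from −0.28 to 0.06, NFATC3 from −0.01 to 0.27, NFATC4 from −0.36 to 0.05 and NFAT5 from 0.00 to 0.12, none of them called. The difference between the comparisons for NFAT5 ranged from −0.12 to 0.04. The numbers of genes called ranged from 147 to 381 higher and 53 to 252 lower in ΔNFATC4 against mock, and from 0 to 31 higher and 0 to 33 lower in NFATC4-KO against control.

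In ΔNFATC4 against mock, 326 genes were called higher and 204 lower. Higher and lower calls were 1175 and 1072 with limma-voom, 1084 and 860 with only the 2 groups, 1138 and 963 with the set as a term, 1053 and 927 with the replicate block, 1333 and 1136 without the libraries numbered 3 to 5, and 1111 and 876 without those numbered 1 and 2. DESeq2 called 324 lower. In NFATC4-KO against control, 31 were called each way. Higher and lower calls were 175 and 182 with DESeq2, 161 and 134 with limma-voom, 0 and 0 with only the 2 groups, 671 and 789 with the set as a term, 163 and 280 without the libraries numbered 3 to 5, and 515 and 460 without those numbered 1 and 2. The replicate block, with only the libraries numbered 1 to 3 of the 2 groups, gave 95 lower.

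RCAN1, SLC6A12 and AQP1 stayed called under every alternative that gave a value, and SLC6A12 gave none under the filter of 50 counts. DYRK2 and JUND each lost the call under 6 alternatives, MAPK14 under 5, and PIM1 and MYC under 2 each. The replicate block changed no call of a member. NFATC1 and NFATC2 rest on 45 to 266 counts a library, which limits the precision of their values. Per kb of the longest transcript NFATC4 averaged 16.6 CPM in mock cells.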
